A study of Mus musculus with 4 samples.

Results

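Expression of 10 genes of the transforming growth factor-β (TGF-β) pathway was described in single B cells of mouse spleen. The genes were chosen by name, and all 10 were found in the table of 31053 genes. Of these, 4 make, hold or activate the ligand (Tgfb1, Lrrc32, Nrros and Furin), 2 encode receptors (Tgfbr1 and Tgfbr2), and 4 encode a signal carrier or feedback proteins (Smad3, Smad7, Skil and Ski). Each of the 10 had at least 829 unique molecular identifiers (UMIs, each standing for 1 captured mRNA molecule), so all of these members passed the minimum of 10 UMIs that a gene needed to be counted.

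The labels describe 4 samples of wild-type (WT) B cells from spleen, 2 of Bregs-CpG and 2 of Bregs-TLR. Bregs-CpG were purified B cells cultured with CpG B ODN 1668, a ligand of Toll-like receptor 9, for 3 days. Bregs-TLR had the same culture and received LPS, PMA and ionomycin for its last 5 hours, so CpG was shared by all samples. The methods of the study name C57BL/6 mice as the background and do not say how many animals stood behind a sample. The cells carry the numbers 5 to 8 for the library they came from, and no label ties a library number to a sample. Values are therefore given for each library by itself, no library is called Bregs-CpG or Bregs-TLR, and no difference between the cultures was tested.

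TGF-β1 is secreted in a latent form. The protease furin cuts its precursor, and the cut propeptide stays wrapped around the cytokine. GARP, the protein of Lrrc32, ties this latent complex to the cell surface of regulatory T cells, platelets and activated B cells, and its relative LRRC33, the protein of Nrros, does so on myeloid cells. Freed TGF-β binds TGFBR2, which recruits and phosphorylates the kinase TGFBR1, and TGFBR1 phosphorylates SMAD2 and SMAD3. SMAD7 blocks the receptors, and SKI and its relative SnoN (from Skil) hold SMAD complexes in a repressed state. In B cells the pathway is known for class switching to IgA and for restraint of activation, and regulatory B cells are defined in part by IL-10.

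After the limits of at least 1000 genes and under 10% mitochondrial UMIs, 18534 of 19920 cells were kept, with 4003 to 5621 cells and 44842982 to 63638158 UMIs in a library. The median cell held 8752 UMIs in library 5, 8785 in library 6, 10355 in library 7 and 10077 in library 8, and the median mitochondrial share was 7.22%, 7.18%, 4.61% and 4.65% in the same order. Libraries 5 and 6 were at least 2-fold apart in 5.83% of 13936 genes and libraries 7 and 8 in 7.32%, whereas 27.7% of genes were at least 2-fold apart in 1 direction in all 4 pairings of library 5 or 6 with library 7 or 8. The B cell genes Cd79a and Cd74 were found in all libraries, at no less than 1033 and 5831 CPM (UMIs per 1000000 UMIs of the library). Of 6 B cell markers, 5 were at least 2-fold lower in libraries 7 and 8 in all 4 pairings, beside 15.3% of all genes. Among these, Ms4a1 (CD20) was at 1499, 1510, 32.0 and 37.0 CPM in libraries 5 to 8. Cd74 was lower by less, at a ratio of 0.817 to 0.862. Of the cells that are known to carry GARP or TGF-β1, T cells left no UMI of Cd3e, Cd4 or Cd8a, platelets none of Ppbp, Gp9 or Gp1bb, and macrophages none of Lyz2. Other markers of such cells were found. Over all libraries Cd3d had 31 and Cd3g 2 UMIs, and Itga2b had 47 and Pf4 4. Among myeloid markers Fcer1g had 789, Cd68 464, Itgam 270, Adgre1 44, Csf1r 3 and Cd14 1. The summed levels in the 4 libraries were 0.0943 to 0.232 CPM for 6 T and NK cell markers, 0.131 to 0.445 CPM for 5 platelet markers and 5.50 to 10.0 CPM for 7 myeloid markers. The erythroid markers summed to 4.59, 4.30, 219 and 285 CPM, nearly all from Hbb-bt, with Hba-a1 and Hba-a2 at 0, and the part of such RNA in the results was not tested.

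Furin, Lrrc32 and Tgfbr2 were the members that lay at least 2-fold apart in all 4 pairings. Furin and Lrrc32 were higher in libraries 7 and 8, and Tgfbr2 was lower there. These are 2 of 10 members higher, where 12.4% of all 13936 genes were, and 1 of 10 lower, where 15.3% of all genes were. The 3 members in either direction stand beside the 27.7% of all genes given above, a like share. Without the fold limit, libraries 7 and 8 both lay above libraries 5 and 6 for 5 members (45.3% of all genes) and both below them for 3 (40.2% of all genes), and for Smad7 and Skil the libraries overlapped. In the plot of levels, the pair of libraries 5 and 6 and the pair of libraries 7 and 8 each sit close together for every member.

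**Figure D1:**
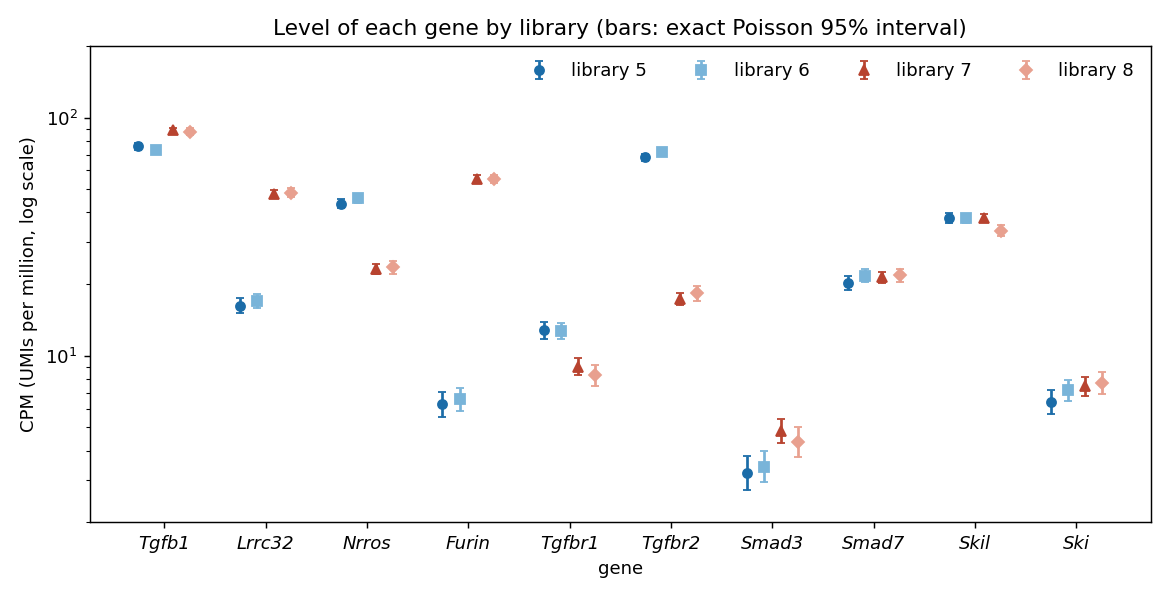
CPM of the 10 genes on a log axis, 1 point per library, with exact Poisson 95% intervals that cover counting error only. Furin stands at 6.27 and 6.57 CPM in libraries 5 and 6 and at 55.4 and 55.1 CPM in libraries 7 and 8, and Tgfbr2 at 68.0 and 71.9 against 17.3 and 18.3 CPM.

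Tgfb1, the ligand itself, lies at chr7:25687002-25705077 on the plus strand of GRCm38. Its level was 75.9 CPM in library 5, 72.8 in library 6, 88.4 in library 7 and 87.4 in library 8. The ratio of library 7 or 8 to library 5 or 6 was 1.15 to 1.21. On the log2 scale this is 0.20 to 0.28, beside a median over all genes of 0.03 to 0.10. A Tgfb1 UMI was seen in 48.7%, 49.3%, 56.2% and 55.7% of cells of libraries 5 to 8. Since cells of libraries 7 and 8 held more UMIs, cells were also compared after each had been thinned to 5000 UMIs at random, which left out 662 shallower cells (158, 114, 233 and 157). At that depth 30.2% (95% interval, 28.8% to 31.6%), 30.3% (29.0% to 31.7%), 33.4% (32.1% to 34.7%) and 33.4% (31.9% to 35.0%) of cells had a Tgfb1 UMI. The intervals of libraries 5 and 6 lay below those of libraries 7 and 8 and overlapped within each pair. A cell with the gene held on average 1.62 to 1.79 Tgfb1 UMIs, and no cell more than 13. Intervals here are exact binomial for shares and exact Poisson for CPM, and they cover counting error, not variation between mice or cultures.

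Furin showed the widest separation among the members. The gene lies at chr7:80388585-80405436 on the minus strand, and its product is the proprotein convertase that cuts the TGF-β1 precursor among many other substrates. It had 6.27 CPM (5.56 to 7.04) in library 5, 6.57 (5.89 to 7.30) in library 6, 55.4 (53.6 to 57.3) in library 7 and 55.1 (53.0 to 57.3) in library 8. The ratio was 8.39 to 8.84 over the 4 pairings. At 5000 UMIs per cell, 3.17%, 3.02%, 21.8% and 21.6% of cells had a Furin UMI, and in the unthinned counts 6.41%, 6.83%, 40.1% and 39.2%. Both the number of cells with the gene and the UMIs in such a cell were higher in libraries 7 and 8. In the unthinned counts the latter had a mean of 1.57 and 1.60 against 1.04 and 1.05 in libraries 5 and 6. That mean rises with the depth of cells, greater in libraries 7 and 8, and with the gene's level, so it is no separate result. The related convertase Pcsk7 had 21.5, 21.6, 18.8 and 19.4 CPM, and Pcsk5 and Pcsk6 had no UMI.

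Lrrc32 (chr7:98489283-98502181, plus strand), the gene of the surface tether GARP, was also higher in libraries 7 and 8. Its levels were 16.3 CPM (15.1 to 17.5), 16.9 (15.8 to 18.1), 48.0 (46.3 to 49.7) and 48.4 (46.4 to 50.5) in libraries 5 to 8, a ratio of 2.84 to 2.98. A Lrrc32 UMI was found in 7.23%, 6.91%, 20.0% and 20.3% of cells at 5000 UMIs, and in 14.3%, 14.9%, 36.5% and 36.9% of cells without thinning. The 4 subunits of the endosome-to-Golgi transport complex that shares the acronym GARP, Vps51 to Vps54, are unrelated to Lrrc32, and none of the 4 was 2-fold apart in all pairings. Their closest to that limit was Vps51, with 9.01, 8.83, 5.03 and 4.99 CPM.

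Nrros (chr16:32142785-32165594, minus strand), whose product LRRC33 is a relative of GARP, differed in the other direction. It had 43.5, 45.8, 23.1 and 23.5 CPM in libraries 5 to 8, so that libraries 5 and 6 were 1.85 to 1.98 times as high as libraries 7 and 8, just inside the 2-fold limit. At equal depth 19.1% (17.9% to 20.4%), 20.7% (19.5% to 21.9%), 10.7% (9.84% to 11.5%) and 11.1% (10.1% to 12.1%) of cells had a Nrros UMI. The intervals of libraries 5 and 6 lay above those of libraries 7 and 8. Of 4 myeloid markers with at least 10 UMIs, Itgam, Adgre1 and Fcer1g were lower in libraries 7 and 8 as well. Cd68 was higher (1.72, 1.76, 2.44 and 3.09 CPM). Adgre1, with 44 UMIs over all libraries, reached that minimum only through libraries 5 and 6, so the filter helped to set its direction. The 7 myeloid markers summed to 9.77, 10.0, 5.72 and 5.50 CPM in libraries 5 to 8, and their part in the Nrros values was not tested.

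**Figure D2:**
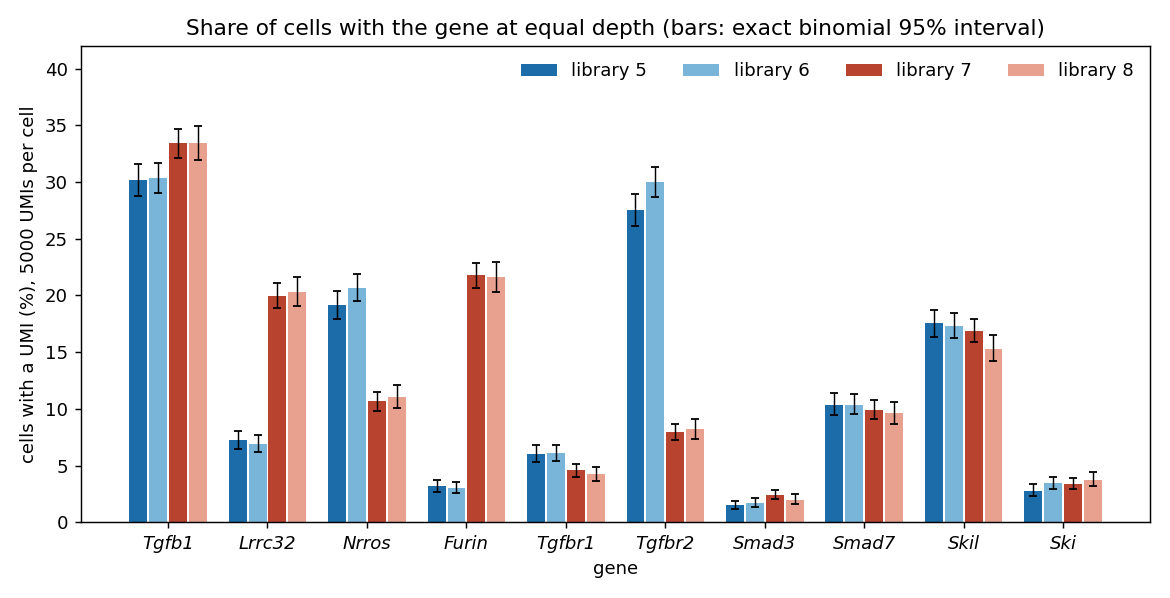
Share of cells (%) with at least 1 UMI of each gene after thinning every cell to 5000 UMIs, by library, with exact binomial 95% intervals. Furin and Lrrc32 are at 3.02% to 7.23% in libraries 5 and 6 and at 20.0% to 21.8% in libraries 7 and 8, Nrros and Tgfbr2 are higher in libraries 5 and 6, and the bars of Smad7 overlap.

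Of the receptors, Tgfbr2 (chr9:116084293-116175360, minus strand), which binds the ligand, was lower in libraries 7 and 8. It had 68.0 CPM (65.6 to 70.5), 71.9 (69.6 to 74.3), 17.3 (16.3 to 18.3) and 18.3 (17.1 to 19.6) in libraries 5 to 8. Libraries 5 and 6 were 3.72 to 4.16 times as high as libraries 7 and 8. The share of cells with a Tgfbr2 UMI was 27.5%, 30.0%, 7.93% and 8.22% at 5000 UMIs per cell, and 46.7%, 49.8%, 16.6% and 17.5% without thinning.

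Tgfbr1 (chr4:47353222-47414931, plus strand), the receptor that phosphorylates SMAD2 and SMAD3, was less far apart, at 12.8, 12.8, 8.99 and 8.28 CPM, a ratio of 0.645 to 0.704. The Poisson intervals of libraries 5 and 6 (11.8 to 13.9 CPM over both) lay above those of libraries 7 and 8 (7.46 to 9.76 CPM). At equal depth 5.99%, 6.09%, 4.57% and 4.21% of cells had a Tgfbr1 UMI. Cells with UMIs of both receptors made up 1.78%, 1.89%, 0.260% and 0.286% of the cells of libraries 5 to 8. If the receptors were spread over cells independently of each other, 1.65%, 1.83%, 0.362% and 0.346% would have both. The values of libraries 7 and 8 rest on only 14 and 11 such cells.

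Smad7, the inhibitory SMAD that TGF-β signaling itself induces in many cells, had 20.2, 21.7, 21.4 and 21.7 CPM, and all 4 Poisson intervals overlapped. The share of cells at equal depth was 10.4%, 10.4%, 9.91% and 9.59%. Skil (chr3:31095058-31122577, plus strand), also a known target of the pathway, had 38.0, 37.7, 37.8 and 33.5 CPM. Library 8 was lowest, and its interval (31.9 to 35.3 CPM) lay under those of the other 3 libraries, which overlapped each other. With TMM or median-of-ratios scaling Skil was lower in libraries 7 and 8 in all pairings, by at most 0.25 on the log2 scale.

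Smad3 (chr9:63646767-63757994, minus strand) was sparse, with 829 UMIs over all cells. Its levels were 3.23 CPM (2.73 to 3.81), 3.43 (2.94 to 3.97), 4.84 (4.31 to 5.41) and 4.36 (3.77 to 5.01), a ratio of 1.27 to 1.5 in which the interval of library 8 reached into those of libraries 5 and 6. Ski (chr4:155154075-155222592, minus strand) had 6.42 (5.70 to 7.21), 7.17 (6.45 to 7.93), 7.45 (6.79 to 8.15) and 7.71 CPM (6.92 to 8.56), with intervals that overlapped between all neighbors in that order. The ratio of Ski was 1.04 to 1.2, and with other scalings of the libraries its direction was not the same in all pairings. At equal depth a Smad3 UMI was found in 1.49% to 2.41% of cells and a Ski UMI in 2.77% to 3.74%.

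For 3 members whose libraries differed in distinct ways, Tgfb1 with a small difference, Furin with higher and Tgfbr2 with lower levels in libraries 7 and 8, the 250 bases before an annotated start (RefSeq, GRCm38.p6) are shown, 5′ to 3′ on the strand of the gene. Capitals mark the GC box, GGGCGG or its complement CCGCCC, which transcription factors of the SP family bind. The windows are chr7:25686752-25687001 (plus strand) for Tgfb1, chr7:80402813-80403062 (minus strand) for Furin, which lies inside the gene before a downstream start and outside its annotated exons, and chr9:116175364-116175613 (minus strand) for Tgfbr2.
Tgfb1: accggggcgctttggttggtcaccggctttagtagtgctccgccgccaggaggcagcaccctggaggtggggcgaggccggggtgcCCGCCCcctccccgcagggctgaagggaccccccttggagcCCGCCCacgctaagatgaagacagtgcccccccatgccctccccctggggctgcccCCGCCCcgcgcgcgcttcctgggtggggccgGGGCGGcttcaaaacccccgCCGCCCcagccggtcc
Furin: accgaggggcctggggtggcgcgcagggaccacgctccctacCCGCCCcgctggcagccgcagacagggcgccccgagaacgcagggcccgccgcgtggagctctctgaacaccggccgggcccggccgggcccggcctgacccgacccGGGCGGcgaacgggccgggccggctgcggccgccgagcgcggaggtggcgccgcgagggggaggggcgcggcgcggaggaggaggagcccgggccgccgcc
Tgfbr2: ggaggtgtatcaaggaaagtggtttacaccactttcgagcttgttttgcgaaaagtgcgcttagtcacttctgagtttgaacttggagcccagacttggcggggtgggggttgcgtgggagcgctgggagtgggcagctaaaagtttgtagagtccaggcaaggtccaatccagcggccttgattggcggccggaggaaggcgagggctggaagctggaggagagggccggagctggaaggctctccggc

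The Tgfb1 window held 5 GC boxes at a GC content of 75.2%, the Furin window shown 2 at 83.2%, and the Tgfbr2 window none at 58.4%. The other Furin window of the table, directly before the 5′ end of the gene, held no GC box at a GC content of 50.4% and is not shown, as all of its 250 bases lie in annotated exons. A GC box was present in 32.7% of all 32851 windows of this length in the table. The AP-1 motif TGANTCA was in 6.75% of all windows, the CRE TGACGTCA in 1.55% and the SMAD palindrome GTCTAGAC in 0.167%, all searched on both strands, and none of these 3 was found in the 9 windows of the 7 members that had one (Tgfb1, Furin, Nrros, Tgfbr1, Tgfbr2, Smad3 and Ski). Lrrc32, Smad7 and Skil had no entry. The counts come from the 3′ ends of transcripts, so they do not say which start was used.

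Il10, the cytokine by which regulatory B cells are usually recognized, stood at 13.7, 11.1, 255 and 253 CPM in libraries 5 to 8, and 4.01%, 3.48%, 57.4% and 57.4% of cells had an Il10 UMI at 5000 UMIs per cell. The next question was whether the ligand genes were found more often in the cells with Il10, which was asked within each library. There were 162, 160, 3091 and 2206 cells with an Il10 UMI and 3876, 4440, 2297 and 1640 without one. The few Il10-positive cells of libraries 5 and 6 differed from those of libraries 7 and 8 in other genes, with Ms4a1 at 1586 and 1603 against 33.5 and 32.2 CPM. The Il10-negative cells differed in the same way, with Ms4a1 at 1515 and 1559 against 31.5 and 47.6 CPM.

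Lrrc32 was found more often in Il10-positive cells in each of the 4 libraries. The share was 14.8% (9.73% to 21.2%) of Il10-positive against 6.91% (6.14% to 7.76%) of Il10-negative cells in library 5, and 13.1% (8.31% to 19.4%) against 6.69% (5.97% to 7.46%) in library 6. The intervals did not overlap in these libraries. In library 7 it was 21.3% (19.9% to 22.8%) against 18.2% (16.7% to 19.9%), and in library 8 21.8% (20.1% to 23.6%) against 18.3% (16.4% to 20.3%), where they did. The difference was thus 7.90, 6.44, 3.05 and 3.51 points in libraries 5 to 8.

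Furin was found more often with Il10 in libraries 7 and 8, with intervals apart, at 24.4% (22.9% to 25.9%) against 18.2% (16.7% to 19.9%) and 23.7% (21.9% to 25.5%) against 18.8% (16.9% to 20.8%). In libraries 5 and 6 it was in 4 Il10-positive cells each, 2.47% (0.677% to 6.20%) against 3.20% and 2.50% (0.685% to 6.28%) against 3.04%. A difference in either direction was not detectable there at this depth. With more Il10 UMIs in a cell the share with Furin in library 7 was 18.2%, 22.8%, 22.5% and 27.7% at 0, 1, 2 and 3 or more Il10 UMIs, and in library 8 it was 18.8%, 22.2%, 26.2% and 23.4%. The rise of Furin over these steps was not regular in either library. For Lrrc32 the rise was smaller but held at each step, with 18.2%, 19.6%, 20.9% and 23.5% in library 7 and 18.3%, 21.5%, 21.7% and 22.2% in library 8. Lrrc32 was in 6.91%, 11.4%, 19.4% and 33.3% of cells in library 5 and 6.69%, 11.9%, 11.1% and 42.9% in library 6. The last step there rests on only 12 cells (9.92% to 65.1%) and 7 cells (9.90% to 81.6%).

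Tgfb1 had no like direction when cells with and without an Il10 UMI were compared. Its share in Il10-positive and Il10-negative cells was 34.0% and 30.0% in library 5, 28.1% and 30.4% in library 6, 33.7% and 33.0% in library 7, and 35.0% and 31.3% in library 8. All 4 pairs of intervals overlapped. The differences of 3.95, -2.28, 0.787 and 3.65 points became -4.44, 0.754, -0.194 and 1.83 points in a second random thinning, so that the sign changed in 3 of 4 libraries. Those of Lrrc32 (8.09, 5.74, 3.72 and 5.16 points) and those of Furin in libraries 7 and 8 (6.44 and 2.86 points) kept theirs. At 3 or more Il10 UMIs in the first thinning, Tgfb1 was in 41.7% of 12, 42.9% of 7, 34.6% of 1066 and 37.3% of 730 cells. Each of these shares was above that of the Il10-negative cells. The intervals were apart in library 8 only (33.7% to 40.9% against 29.1% to 33.6%).

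**Figure D3:**
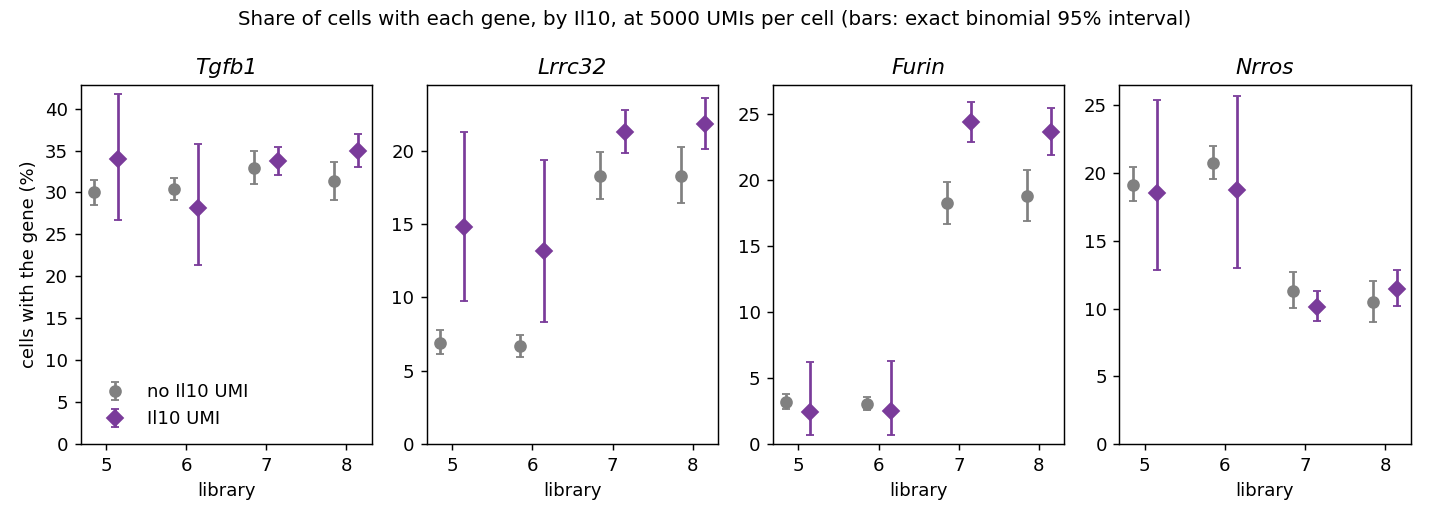
Share of cells (%) with a UMI of Tgfb1, Lrrc32, Furin or Nrros among cells without (circles) and with (diamonds) an Il10 UMI, by library, at 5000 UMIs per cell with exact binomial 95% intervals. Lrrc32 is higher with Il10 in all 4 libraries, Furin in libraries 7 and 8, and the intervals of Tgfb1 and Nrros overlap in each library.

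Over all 10 members, 3 were found more often in Il10-positive cells in all 4 libraries (Lrrc32, Tgfbr1 and Skil), beside 12.3% of the 9406 genes with at least 200 thinned UMIs, and none was found less often in all 4, beside 7.84%. For Tgfbr1 and Skil the differences were 0.00846 to 0.816 and 0.336 to 2.31 points, within overlapping intervals. A ratio of at least 1.2 was reached by 1, 2, 1 and 2 members in libraries 5 to 8, where 27.5%, 27.7%, 7.14% and 9.46% of all genes reached it. A ratio at least as far below 1 was found for 2, 2, 0 and 0 members, where 24.9%, 24.2%, 6.15% and 9.03% of all genes had one. In library 7 that member was Furin, at 1.34, and in library 8 they were Furin at 1.26 and Ski at 1.24.

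These differences depended on depth. In the unthinned counts an Il10 UMI was found in 314, 351, 3950 and 2868 cells of libraries 5 to 8, a larger set than at 5000 UMIs per cell. These Il10-positive cells held more UMIs than the Il10-negative cells, with medians of 12200 and 8566 in library 5, 13075 and 8593 in library 6, 10754 and 9530 in library 7, and 10508 and 9213 in library 8. Without thinning, Tgfb1 was found more often in Il10-positive cells by 9.33, 8.34, 8.24 and 8.64 points, Lrrc32 by 16.6, 16.8, 12.9 and 11.3 points, and Furin by 3.40, 4.32, 13.4 and 10.9 points. At 5000 UMIs per cell all 12 of these differences were smaller, and those of Tgfb1 and of Furin lost their common sign. Those of Furin were then -0.730, -0.541, 6.15 and 4.88 points in libraries 5 to 8. Thinning also lowered the share of cells with each gene and with Il10. The part of this loss of detection in the smaller differences was not tested.

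**Figure D4:**
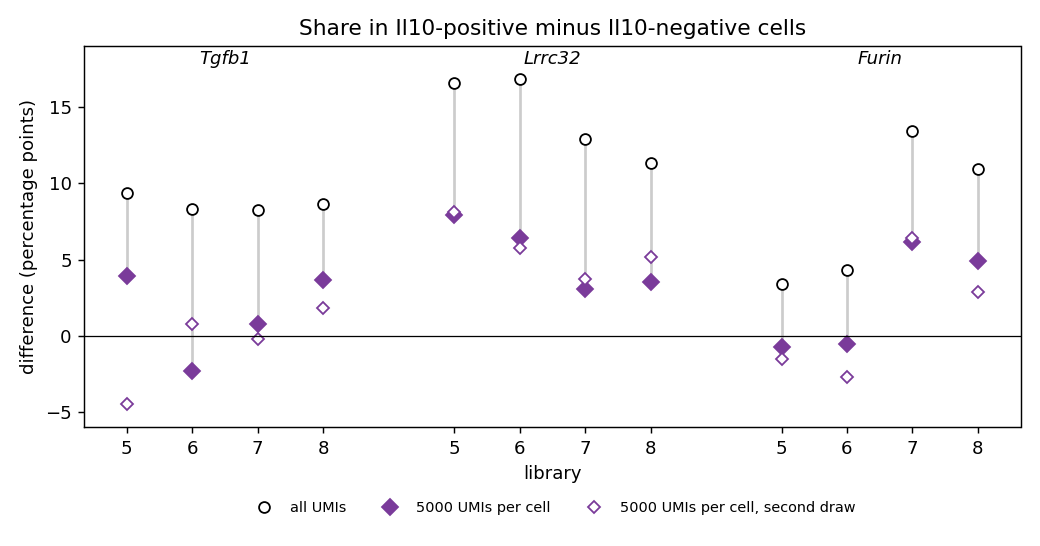
Share of cells with the gene among Il10-positive minus Il10-negative cells (percentage points), by library, with all UMIs (open circles), at 5000 UMIs per cell (filled diamonds) and in a second random thinning (open diamonds). Il10-positive cells were called anew in each set of counts. The Tgfb1 differences of 8.24 to 9.33 points fall to between -4.44 and 3.95 points, and those of Lrrc32 stay above 0.

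Cells in which the ligand and its processing genes were found together were few. UMIs of Tgfb1, Lrrc32 and Furin were all present in 4, 5, 88 and 72 cells of libraries 5 to 8 at 5000 UMIs per cell, or 0.0991% (0.0270% to 0.253%), 0.109% (0.0353% to 0.253%), 1.63% (1.31% to 2.01%) and 1.87% (1.47% to 2.35%). If the 3 genes were spread independently, 0.0691%, 0.0633%, 1.45% and 1.47% of cells would have all of them. This lies within the interval in libraries 5, 6 and 7. In library 8 it lies just below the interval (1.465% against a lower bound of 1.468%). Of these 4, 5, 88 and 72 cells, 1, 0, 57 and 52 also had an Il10 UMI. Over all cells at this depth 4.01%, 3.48%, 57.4% and 57.4% had one. In library 6, 0 of 4600 cells allows a share of up to 0.0652% (3 counts) or 0.0802% (exact binomial). None of the 3 genes was found in 62.5%, 62.8%, 42.2% and 42.4% of cells.

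For pairs of these genes the share expected of independent genes lay within the binomial interval of the observed share, except for Lrrc32 with Furin in library 7 (4.97%, 4.41% to 5.59%, against 4.35%). Tgfb1 and Lrrc32 shared 2.03%, 1.85%, 7.05% and 7.23% of cells, which is 0.931, 0.881, 1.06 and 1.06 times that expectation. The ratio was 1.01, 1.09, 0.957 and 1.07 for Tgfb1 with Furin. For Lrrc32 with Furin it was 0.864, 1.46, 1.14 and 1.06, of which the first pair rests on 8 and 14 cells. At 5000 UMIs many cells that carry an mRNA show no UMI of it, so these shares are not shares of expressing cells. No cell type that should lack these genes was present to give the share that free RNA leaves in a cell. For Jchain, which is restricted to a few antibody-secreting cells, 0.299% to 0.547% of cells with fewer than 5 Jchain UMIs had a UMI. Low expression and free RNA cannot be told apart in such cells. The erythroid gene Hbb-bt was found far more widely, in 33.6% of Il10-positive and 33.0% of Il10-negative cells of library 7. In library 8 it was in 36.8% and 36.7%, and in libraries 5 and 6 in 0.617% to 1.28%. How these cells came by Hbb-bt RNA was not tested.

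The cells gave no close partner for the ligand genes. Over 5469 genes found in at least 5% of cells of each library, the highest mean of the 4 within-library Pearson correlations was 0.05 for each of Tgfb1 (with Cd52) and Lrrc32 (with Cd24a) and 0.04 for Furin (with Cd44). The next were Dusp2, Actb, Actg1 and H2-Ab1 for Tgfb1, Id2, Jund, Actb and Lcp1 for Lrrc32, and Id2, Slfn2, Rel and Dusp2 for Furin. Il10 was not among the 5469 genes, as it was in 4.01% and 3.48% of cells of libraries 5 and 6. Its correlations with Lrrc32 in libraries 5 to 8 were 0.0736, 0.0547, 0.0570 and 0.0438, against 0.0595, 0.0426, 0.0530 and 0.0638 for Cd24a. With Tgfb1 those of Il10 were 0.0210, -0.00644, 0.00904 and 0.0490, and with Furin 0.00301, -0.00945, 0.0834 and 0.0549. The cells of a library share their preparation, such values are weak in sparse counts, and they are given as a description only.

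The same limit of 2-fold in all 4 pairings was then applied to lists of pathway genes, which include the 10 members. It was passed by some ligand, activation, receptor, regulator and response genes and by no SMAD or TAK1 branch gene. Pmepa1 and Ldlrad4 were counted in both the regulator and the response list. Over all genes, 12.4% were higher and 15.3% lower in libraries 7 and 8, which is the background for each list. Of 3 ligand genes, Tgfb3 stayed at 0.174 to 0.241 CPM, and Tgfb2 was past the limit with 3, 2, 21 and 14 UMIs in libraries 5 to 8. Of 20 genes of latency and activation, 11 had at least 10 UMIs and 6 had none, among them Ltbp1 and Ltbp2, which bind the latent complex to matrix, and Itgb6, part of an integrin that frees TGF-β. Lrrc32, Furin and Thbs1 (0, 0, 5 and 7 UMIs) were higher in libraries 7 and 8. Itgb1, Itgb3 (14, 18, 4 and 2 UMIs) and Itgb5 (5, 13, 2 and 2 UMIs) were lower. Thbs1 and Tgfb2, and Bmpr1a and Zfyve9 given below, reached the minimum of 10 UMIs only through libraries 7 and 8. Itgb3, Itgb5 and the Tgfbr3 given below reached it only through libraries 5 and 6. The filter thus helped to set the direction of these sparse genes, and that of Thbs1 was fixed by it. Itgb1, the integrin β1 chain, had 127, 128, 46.2 and 44.2 CPM, and Itgav, the αv chain, had 8.88, 9.02, 16.9 and 15.3 CPM.

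Of 13 receptor genes, 6 were higher in libraries 7 and 8 and 2 were lower, 8 in either direction beside 27.7% of all genes. These counts include Bmpr1a and Tgfbr3, which passed the filter only through the libraries where they were high. Nothing is therefore concluded from the 8 of 13. Lower were Tgfbr2 and the coreceptor Tgfbr3, the latter with 10, 10, 0 and 3 UMIs. Higher were Acvrl1, Acvr1, Bmpr1a and Bmpr2, which are receptors for ligands of the wider family, the decoy receptor Bambi, and Fkbp1a, which binds type I receptors and keeps them inactive. Fkbp1a had 90.7, 90.2, 269.9 and 253 CPM, and Acvrl1 1.92, 2.09, 4.86 and 5.30 CPM. Sparse were Acvr1, with 5, 6, 44 and 23 UMIs, and Bmpr1a, with only 1, 2, 20 and 12 UMIs.

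None of the 7 SMAD genes counted and none of the 6 genes of the TAK1 branch was past the limit. Map3k7, the gene of TAK1, had 11.8, 11.6, 14.9 and 14.1 CPM. Of 17 corepressors and regulators, 3 were higher (Strap, Pmepa1 and Zfyve9) and 2 lower (Nedd4l and Ldlrad4), near the 27.7% of all genes in either direction. Of 18 response genes counted, 4 were higher (Pmepa1, Id1, Id2 and Junb) and 3 lower (Ldlrad4, Cdkn2b and Nedd9), beside the same background. Pmepa1 and Ldlrad4, both of which bind SMADs and dampen the signal, differed in opposite directions, with 6.58, 6.93, 44.1 and 41.4 CPM for Pmepa1 and 0.781, 1.18, 0.189 and 0.153 CPM for Ldlrad4. Junb, an AP-1 subunit with many other inducers, had 73.7, 67.3, 354 and 343 CPM, and Cdkn2b, a cell cycle inhibitor, had 11.4, 10.6, 3.13 and 2.50 CPM.

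**Figure D5:**
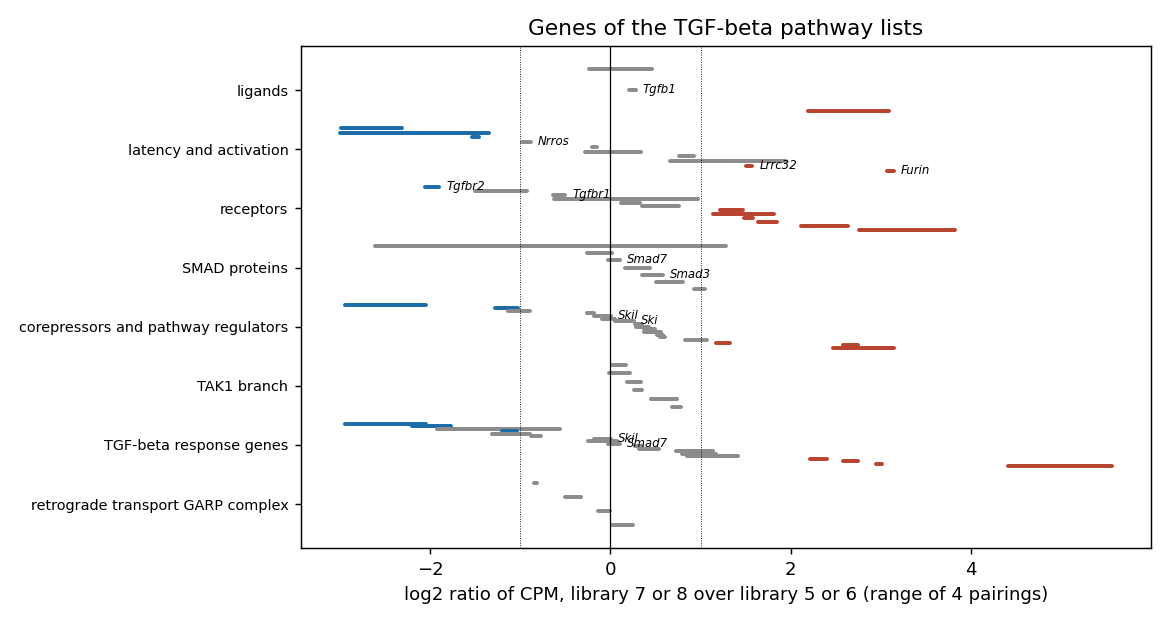
Each line is 1 gene and spans the log2 ratios of CPM over the 4 pairings of library 7 or 8 with library 5 or 6, by pathway list, with members named. Red and blue lines are genes at least 2-fold higher or lower in all pairings (dotted lines), and genes with no UMI in 1 of the libraries are not drawn.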

How the data were processed

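Libraries had been prepared with Chromium Single Cell 3′ v3 chemistry. The deposited matrix holds UMI counts per gene and cell that the authors made with Cell Ranger (version 3.1.0) on mouse mm10 with Ensembl 93 genes, and whose libraries they combined and evened out in depth with its aggr step. The counts are not imputed. There were 35989 columns for 19920 barcodes. Barcodes were matched, in order, with the final columns, since mean expression shifted at the starts of libraries 5 and 7 (percentiles 99.35 and 100 of all columns) and less at those of 8 (91.65) and 6 (51.78). The other 16069 columns were not used. Of the barcode sequences, 29 occurred in more than 1 library. Cells needed at least 1000 genes and under 10% mitochondrial UMIs. No doublet caller was run.

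CPM was computed from summed UMIs per library. Shares of cells were taken from counts thinned to 5000 UMIs per cell (Python 3.11.15, NumPy 2.4.6, SciPy 1.17.1), and intervals are at 95%. A gene was counted as apart where CPM differed at least 2-fold in 1 direction in all 4 pairings of library 5 or 6 with library 7 or 8, among genes with at least 10 UMIs. Genes named are the 10 members, Il10, members of pathway lists past that limit or named by the study, and the 5 genes most correlated with Tgfb1, Lrrc32 and Furin. Outside this rule, marker genes, Tgfb3, Pcsk5 to Pcsk7, Itgav, Ltbp1, Ltbp2, Itgb6 and the genes that divide cells were named after their values were seen. A test with edgeR, planned in case barcodes named samples, was not made, since each library would have to be assigned to a culture. The edgeR (version 4.0.16) and DESeq2 (version 1.42.0) packages gave alternative scalings only. Scripts were tested on simulated data. Members, lists, pairings and limits were chosen with earlier results of these data known. Positions are from GENCODE vM21.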

Additional observations from a re-analysis of the deposited data

How the results depend on the processing

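No paired analysis was possible because the library numbers name no sample or replicate. The results below are the difference in the share of cells between Il10-positive and Il10-negative cells, averaged over the 4 libraries (Tgfb1 1.53, Lrrc32 5.22 and Furin 2.44 points), and the number of members 2-fold apart (3). Without thinning the differences were 8.64 for Tgfb1, 14.4 for Lrrc32 and 8.01 points for Furin. With Il10-positive cells defined from 2 UMIs, Lrrc32 came to 8.70 and Tgfb1 to 4.05 points. For Tgfb1 the difference was below 0 at 3000 UMIs per cell (-1.17), in a second random thinning (-0.514) and at 3000 UMIs per cell drawn without mitochondrial, ribosomal protein and immunoglobulin genes (-0.630), so its sign was not fixed by these data. At 8000 UMIs per cell the Tgfb1 difference was above 0 in all 4 libraries, at 0.0554 to 1.62 points with a mean of 0.770. Lrrc32 stayed at 3.01 to 8.70 points and Furin at 1.05 to 2.81 points in the other thinned settings. Leaving out 1 library in turn gave 0.720 to 2.80 points for Tgfb1, 4.33 to 5.95 for Lrrc32 and 1.2 to 3.50 for Furin. Furin came to 1.2 points without library 7 and 1.63 without library 8, and Tgfb1 to 0.720 without library 5, 0.817 without library 8 and 2.80 without library 6. The 3 members apart were the same under TMM and median-of-ratios scaling, without the filter on cells and with any 1 library left out. Nrros joined them at 1.5-fold, where 45.0% of all genes were apart. It also joined them at 2-fold when mitochondrial, ribosomal protein and immunoglobulin genes were left out of the total, where 27.8% of all genes were apart. That change of total moved the median log2 ratio of all genes from 0.03 to 0.10 over the pairings to -0.10 to -0.09, and Smad7 was then lower in libraries 7 and 8 in all pairings. Under that total and under TMM and median-of-ratios scaling, Skil was lower in all pairings and Ski had no common direction. Tgfb1 stayed higher in libraries 7 and 8 in all pairings, but its log2 ratio fell to 0.028 to 0.136 under that total. The sparse members Smad3 and Ski and the 160 to 162 Il10-positive cells of libraries 5 and 6 limit what depth can show.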

Other observations

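Other divisions of the cells were made at 5000 UMIs per cell, in 1 random thinning, and are given as values with no test, since no library is tied to a sample. The first was by Mki67, a gene of dividing cells, which had a UMI in 283, 375, 254 and 220 cells of libraries 5 to 8. Nrros was found less often in these cells in all 4 libraries, by -8.02, -2.48, -2.09 and -1.60 percentage points, and Smad7 by -2.42, -2.58, -0.0718 and -0.534 points. Tgfb1 was found more often, by 5.94, 2.69, 5.43 and 1.66 points, and Tgfbr1 by 3.43, 1.21, 2.23 and 0.354 points. For Tgfb1, Tgfbr1 and Smad7 the binomial intervals overlapped in every library. Among the members, intervals lay apart for Nrros in library 5 (11.7%, 8.16% to 16%, against 19.7%), for Lrrc32 in library 5 (2.83%, 1.23% to 5.49%, against 7.56%) and for Tgfbr2 in library 6 (24.0%, 19.8% to 28.7%, against 30.5%). Lrrc32 and Tgfbr2 had no common direction over the 4 libraries. The share of all genes that differed in these ways between cells with and without Mki67 was not computed, so these members cannot be set against it.

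The second was by Jchain, the joining chain of secreted antibodies. At least 5 Jchain UMIs were found in 19, 33, 49 and 22 cells of libraries 5 to 8. Tgfb1 was found in 26.3% (9.15% to 51.2%), 18.2% (6.98% to 35.5%), 14.3% (5.94% to 27.2%) and 9.09% (1.12% to 29.2%) of them, below the 30.2%, 30.3%, 33.4% and 33.4% of all cells of each library, with intervals that overlapped in libraries 5 and 6. Skil was found in 31.6% (12.6% to 56.6%), 15.2% (5.11% to 31.9%), 30.6% (18.3% to 45.4%) and 31.8% (13.9% to 54.9%) of them, against 17.5%, 17.3%, 16.9% and 15.3% of all cells, so library 6 did not share the direction of the other 3. Lrrc32 was found in 5.26% (0.133% to 26.0%), 0% (0% to 10.6%), 8.16% (2.27% to 19.6%) and 0% (0% to 15.4%) of them. This was below the 7.23%, 6.91%, 20.0% and 20.3% of all cells, with intervals apart in library 8 only. No other member had 1 direction in all 4 libraries. The share of all genes that differed in this way was not computed. The cells with at least 5 Jchain UMIs are few, and 5, 6, 7 and 2 of them had Tgfb1.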
